A study of Mus musculus with 18 samples.

Results

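The net change from the fetal to the adult state was followed in binucleated mouse cardiomyocytes, the heart muscle cells that carry a pair of nuclei. The comparison used the 3 binucleated libraries of the adult against the 3 of the late embryo (E18.5), chosen by their labelled age and nuclear number, so 6 of the 18 libraries of the series. All listed genes entered it. The cells of every group came from Mlc2vcre:R26REYFP hearts, in which a Cre recombinase under the Mlc2v (Myl2) regulatory sequences removes a stop element ahead of a yellow fluorescent protein in the Rosa26 locus. Mlc2v is a gene of ventricular muscle, so cells marked this way are mainly ventricular. Mononucleated cells of both ages and cells of postnatal day 7 (P7) came from hearts of the same genotype, and nuclear classes were separated by flow cytometry into a lysis reagent. The adult age is not given beyond that word, nor is it said whether the libraries of a group came from separate animals. P-values thus reflect variation among these libraries alone, and that may be technical.

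Mouse cardiomyocytes divide in the fetus. Around birth they pass through a last round of DNA replication in which many cells divide the nucleus without dividing the cell, which leaves most adult cardiomyocytes binucleated. In the same weeks the muscle exchanges fetal for adult versions of its contractile proteins and moves from glucose and lactate to fatty acids as its main fuel. In bulk RNA, fewer cells of a type and less RNA per cell cannot be told apart.

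Between 14833334 and 22053711 counts were recovered per library. Values are given as normalised counts, which are the recovered counts multiplied by each library's scaling factor in the deposited values. These factors do not bring the libraries to equal total counts. Age held 79.8% of the variance of the 6 libraries, along the first principal component. The second component held 12.4% and set E18.5 replicate 1 apart from every other library. Its log2 values correlated at 0.884 and 0.896 with the other E18.5 replicates, which correlated at 0.964 with each other, and adult replicates correlated at 0.975 to 0.983. Genes with short transcripts were high in this library: with genes split by transcript length into 4 equal bins, its median difference from replicates 2 and 3 was 0.66 log2 units in the shortest bin and -0.55 in the longest. Values without it are given beside the results that moved most.

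In the adult 3409 genes were higher and 3539 lower than at E18.5 by limma with Benjamini-Hochberg adjustment at 0.05. The share called was 57.7% of the genes tested (28.3% higher and 29.4% lower), which is the background for every count below. The change reached 2-fold in 2073 of the higher genes (17.2% of all) and in 2430 of the lower ones (20.2%). Without E18.5 replicate 1 the counts were 3692 higher (30.6%) and 3901 lower (32.4%), that is 63% of genes. Of the 6948 calls, 6335 were shared with that fit in the same direction, 613 were lost, 1258 were gained, and 0 changed sign. The median log2 fold change of all genes was -0.016. Scaling to total counts moved it to -0.426 and turned the split into 2114 higher and 5313 lower (28.5% of calls higher, against 49.1%), so small changes have no fixed direction.

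Several of the genes that gained most in the adult were close to absent at E18.5. Ces1d, a carboxylesterase that hydrolyses lipid esters, had normalised counts of 0, 5.29 and 2.99 at E18.5 and 7671, 8988 and 9665 in the adult (log2 fold change 11.91 ± 0.88 SE, n = 3 per age, limma adjusted p = 8.08e-09). Ucp3, a mitochondrial uncoupling protein of muscle, had 3 recovered counts in all at E18.5 and 8659 in the adult, a ratio of 3909 with an exact 95% counting interval of 1337 to 18959. The groups did not overlap for either gene, but non-overlap was a condition for naming the genes of largest change. It held for 7065 of all listed genes (58.64%), which is the background for each such statement below. Alpl, the tissue-nonspecific alkaline phosphatase, moved from 0, 0 and 3.74 to 1874, 1340 and 1378 (log2 fold change 10.59, limma adjusted p = 1.11e-09). Kcnv2, a modifying subunit of potassium channels, had 0 counts at E18.5 and 338 to 503 normalised counts in the adult, at least 511-fold higher against a floor of 3 counts over the group. The transcript BC023105 was at least 561-fold higher and Pdzd3, a scaffold protein, at least 254-fold higher. Myh14, a non-muscle myosin heavy chain, stood at 4.89, 0 and 6.74 before birth and at 2508, 2350 and 3377 in the adult.

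Among the genes that lost most were a fetal troponin and a fetal growth factor. Tnni1, the slow skeletal and fetal form of the inhibitory troponin subunit, had 73369, 41574 and 41470 normalised counts at E18.5 and 13.6, 17.9 and 32 in the adult (log2 fold change -11.26 ± 0.35 SE, limma adjusted p = 6.04e-13). Igf2, the fetal insulin-like growth factor, went from 24023, 9588 and 9396 to 4.54, 10.2 and 6.62 (log2 fold change -10.78, limma adjusted p = 4.51e-13). Replicate 1 was the highest E18.5 library for both, and both groups stood far apart without it. Bex4, an X-linked gene of a family of small adaptor proteins, had 2188, 1053 and 1382 at E18.5 and 0 in each adult library, at least 1240-fold lower. Sphkap, an anchor for protein kinase A, and Ror2, a Wnt5a receptor, were also at 0 in the adult, at least 655-fold and at least 617-fold lower.

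Cell cycle genes fell as a block, and the mitotic genes fell furthest. Of 65 measured genes of G2/M and mitosis 64 were lower and 0 higher, with a median log2 fold change of -7.63. Of 62 genes of DNA replication and the entry into S phase 59 were lower and 0 higher, with a median of -2.84. Of 30 cytokinesis genes 22 were lower and 2 higher, with a median of -3.52. Without E18.5 replicate 1 the counts were 64, 60 and 21 lower and 0, 1 and 3 higher. The background share of lower genes was 29.4%.

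Among mitotic regulators, Ccnb1, the cyclin that switches on Cdk1 at the entry into mitosis, had 5699, 6176 and 6384 normalised counts at E18.5 and 2.27, 1.28 and 3.31 in the adult (log2 fold change -11.10 ± 0.41 SE, limma adjusted p = 3.02e-12). Ccna2, another cyclin gene, went from 5136, 5672 and 5843 to 4.54, 3.84 and 8.83. Top2a, the topoisomerase that untangles sister chromosomes, went from 2335, 3565 and 3712 to 9.08, 7.68 and 7.73 (log2 fold change -8.49 ± 0.23 SE, limma adjusted p = 4.51e-13). All 6 libraries of these genes kept the ages apart, with adult values close to the lowest counts the libraries resolve. The related enzyme gene Top2b, which also works in cells that no longer divide, had 1825, 3189 and 3431 at E18.5 and 2523, 2289 and 2158 in the adult (log2 fold change -0.23, limma adjusted p = 0.353; -0.51 and 0.0076 without replicate 1). Plk1, a mitotic kinase, had 4840 recovered counts at E18.5 and 3 in the adult, a ratio of 1191 with an exact counting interval of 407 to 5778.

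Cytokinesis genes that act at the midbody were among the lowest in the adult. Cep55, which recruits the machinery of the final cut between daughter cells, had 828, 1023 and 1217 normalised counts at E18.5 and 0 in the adult, at least 900-fold lower. Anln, the contractile ring scaffold anillin, went from 1416, 3914 and 3602 to 13.6, 10.2 and 5.52 (log2 fold change -8.12, limma adjusted p = 3.24e-11), and Cdca8, a subunit of the chromosomal passenger complex, from 3371, 2357 and 2464 to 18.2, 8.96 and 9.93. The 2 members that were higher, the small GTPase gene Rhob (log2 fold change 1.19) and the ESCRT adaptor gene Pdcd6ip (0.87), have uses outside cell division.

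Cenpf, which encodes a large kinetochore and nuclear matrix protein, did not follow the other mitotic genes to the floor. It had 3065, 2727 and 2971 normalised counts at E18.5 and 834, 1036 and 894 in the adult (log2 fold change -1.67 ± 0.15 SE, limma adjusted p = 8.65e-08). At P7 it stood at 444, 385 and 396, below every adult library. The checkpoint gene Bub3 was also only modestly lower (log2 fold change -0.59). Pttg1, the gene of securin, was the 1 mitotic member not called, with 4285, 1711 and 2876 at E18.5 and 2842, 2569 and 3150 in the adult, and like Bub3 it was chosen after its values were seen.

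Mcm6, a subunit of the replicative helicase, went from 1538, 3788 and 3456 to 39.7, 43.5 and 50.8 (log2 fold change -5.92 ± 0.29 SE, limma adjusted p = 6.24e-11), with replicate 1 the lowest at E18.5. Rrm2, the regulated subunit of ribonucleotide reductase, went from 5324, 6447 and 6962 to 136, 98.6 and 132, and Prim1, the catalytic primase subunit, from 953, 835 and 930 to 14.8, 16.6 and 9.93. Rbl1, the pocket protein p107 whose own gene is an E2F target, was lower (log2 fold change -4.89). Of 29 inhibitors, pocket proteins and G1 regulators 9 were higher and 14 lower. Higher ones included Ccng1, a p53-inducible cyclin (log2 fold change 2.31), and the stress gene Gadd45a (3.29), and lower ones Cdkn1c, an imprinted CDK inhibitor (-3.86), and the D-type cyclin gene Ccnd3 (-1.77).

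Promoters of genes that move together in the cell cycle carry known short elements, shown here for 4 genes. Mcm6 and Top2a are described above and Ccnb2 below, and Cdk1, the kinase partner of Ccnb1, was chosen after its values were seen. Cdk1 had 2819, 1975 and 1777 normalised counts at E18.5 and 3.41, 23.1 and 13.2 in the adult (log2 fold change -7.62). The sequences are the 200 bases before the annotated start, 5′ to 3′ on the gene's strand, from RefSeq on GRCm38.p6. Capitals mark matches on either strand to E2F elements (TTTCGCGC, TTTGGCGC, TTTCCCGC or TTTGCCGC), to the cell cycle homology region TTTGAA and to CCAAT, and matches may overlap.
Mcm6, chr1:128359706-128359905, minus strand: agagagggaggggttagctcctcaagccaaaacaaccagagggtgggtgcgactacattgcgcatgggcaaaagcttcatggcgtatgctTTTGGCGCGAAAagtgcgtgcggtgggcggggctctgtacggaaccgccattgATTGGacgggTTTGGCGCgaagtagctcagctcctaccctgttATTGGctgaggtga
Cdk1, chr10:69352913-69353112, minus strand: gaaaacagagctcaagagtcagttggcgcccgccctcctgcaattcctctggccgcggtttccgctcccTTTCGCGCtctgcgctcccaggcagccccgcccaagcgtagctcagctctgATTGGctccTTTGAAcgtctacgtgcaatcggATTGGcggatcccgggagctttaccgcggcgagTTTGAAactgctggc
Top2a, chr11:99024190-99024389, minus strand: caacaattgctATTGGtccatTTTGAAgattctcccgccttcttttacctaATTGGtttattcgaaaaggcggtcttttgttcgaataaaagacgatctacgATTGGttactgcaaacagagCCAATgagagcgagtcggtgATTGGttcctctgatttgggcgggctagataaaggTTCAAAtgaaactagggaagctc
Ccnb2, chr9:70421555-70421754, minus strand: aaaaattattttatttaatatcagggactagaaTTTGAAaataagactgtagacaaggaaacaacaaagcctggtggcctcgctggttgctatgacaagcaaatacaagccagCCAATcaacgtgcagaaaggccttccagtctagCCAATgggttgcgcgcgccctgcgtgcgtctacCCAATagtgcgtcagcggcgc

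The stretch of Mcm6 held 3 E2F matches, of which 1 pair overlapped, and 2 CCAAT matches. That of Cdk1 held 1 E2F, 2 TTTGAA and 2 CCAAT matches. Top2a had 2 TTTGAA and 5 CCAAT matches, and Ccnb2, a second B-type cyclin (2689 to 4277 normalised counts at E18.5 and 1.14 to 3.31 in the adult), had 1 and 3. Over promoter windows of 250 bases before to 50 after the start, TTTGAA was present in 36 of the 56 mitotic genes that had an entry (64.3%) and CCAAT in 39 (69.6%). The shares over all 27025 genes of the promoter table were 18.1% and 37.9%, and an E2F match was present in 7 of the 56 (12.5%) and in 2.32% of the table. That table is not limited to the genes listed in these libraries, and shares over those genes were not computed. Only 49 of the 62 replication genes had an entry (79%), too few to give their shares. These are matches of letters, not sites shown to be bound.

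**Figure D1:**
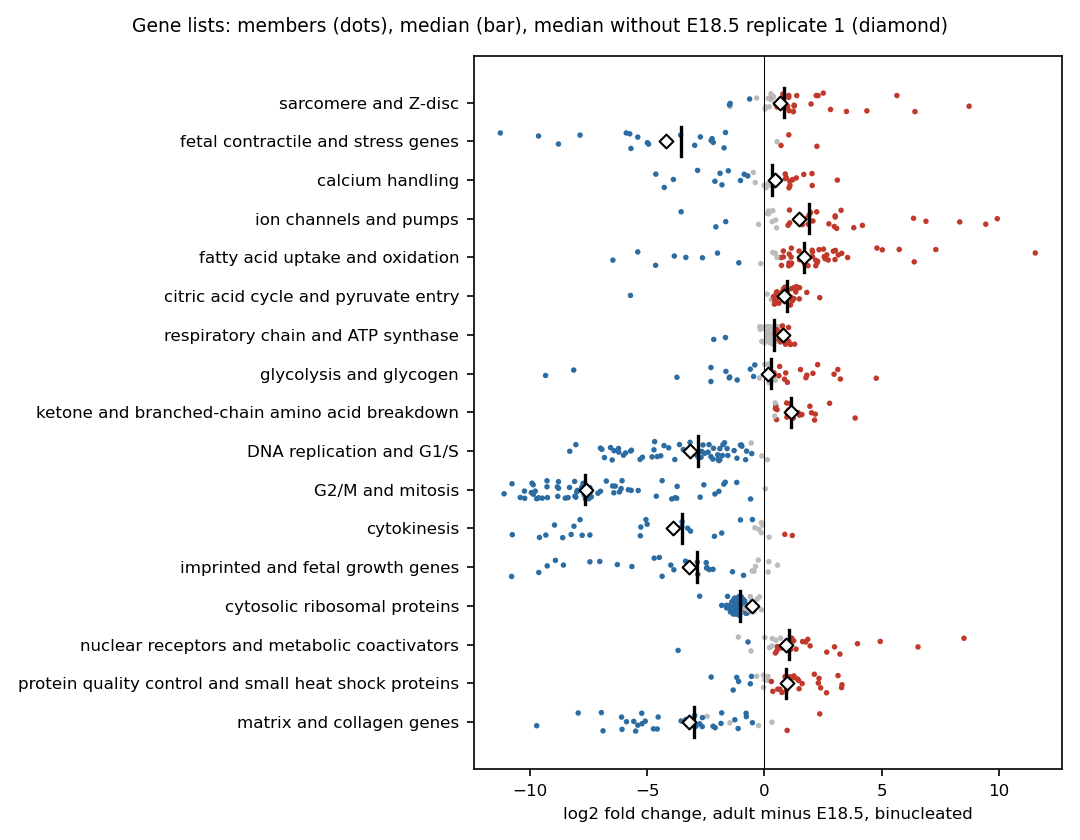
Log2 fold change (adult minus E18.5, binucleated) of the measured members of 17 gene lists, 1 dot per gene, red where higher and blue where lower by limma and grey where not called; bars are list medians and open diamonds the medians without E18.5 replicate 1. The G2/M genes have the lowest median, -7.63, and the ribosomal protein median moves from -1.02 to -0.52 without that library.

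Of 38 measured genes of the sarcomere and Z-disc 26 were higher and 3 lower (median log2 fold change 0.82), which was 30 and 3 without replicate 1 (0.65) and 15 and 9 after quantile normalisation (0.16). Of 23 fetal contractile and stress genes 3 were higher and 19 lower (median -3.57, and -4.19 without replicate 1). Myh7, the slow beta myosin heavy chain of the fetal mouse ventricle, had 58680, 224954 and 200930 normalised counts at E18.5 and 13776, 9196 and 12380 in the adult (log2 fold change -3.57 ± 0.41 SE, limma adjusted p = 1.52e-06). Myh6, the fast alpha chain, had 43240, 143521 and 173487 at E18.5 and 411865, 379787 and 427102 in the adult (log2 fold change 1.99 ± 0.34 SE, limma adjusted p = 0.000119; 1.36 without replicate 1). Replicate 1 was low for both long myosin transcripts, yet the share of Myh6 in the pair was 42.4% in it, against 39% and 46.3% in replicates 2 and 3 and 96.8% to 97.6% in the adult.

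Of 26 fetal and adult pairs of isoforms or paralogs 25 were measured, and in 11 the first gene was lower and the second higher (15 without replicate 1). The first gene was lower in 17 pairs and the second higher in 17. For troponin I, Tnni3, the adult cardiac form, had 56411, 28932 and 29936 normalised counts at E18.5 and 63318, 67580 and 58857 in the adult. This was a log2 fold change of 0.79 (limma adjusted p = 0.00202), which was 1.10 without replicate 1 and -0.0649 after quantile normalisation. Its share of the pair went from 41% to 43.5% up to 99.9% to 100%. The atrial and fetal light chain genes Myl7 (log2 fold change -9.63) and Myl4 (-7.86) were lower, while their ventricular partners Myl2 (0.06) and Myl3 (0.28) were not called with all libraries but were without replicate 1 (0.43 and 0.58) and with array weights, and both were negative with quantile normalisation (-0.76 and -0.68) and total-count scaling (-0.35 and -0.13). Acta1, skeletal alpha-actin, taken as the fetal member of its pair, was higher in the adult (2795, 2062 and 1641 against 11194, 9546 and 9308; log2 fold change 2.24, limma adjusted p = 2.48e-07), and its cardiac partner Actc1 still held 92.9% to 94% of the pair.

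Pairs outside the sarcomere also moved. Rpl3l, a muscle paralog of ribosomal protein L3, went from 198, 132 and 89.8 to 7764, 7939 and 6969 normalised counts (log2 fold change 5.82 ± 0.23 SE, limma adjusted p = 5.08e-12) while Rpl3 went from 7710, 4337 and 4623 to 822, 721 and 831, so that the muscle form moved from 1.91% to 2.96% of the pair to 89.3% to 91.7%. The elongation factor gene Eef1a1 fell by 5.77 on the log2 scale and its muscle and nerve paralog Eef1a2 rose by 1.75, from 1.22% to 1.48% of the pair to 67.5% to 74.7%. Eef1a1 and the ribosomal protein genes have many processed copies in the genome, and how shared reads were counted is not given, so their levels are uncertain. In the next pairs only the second gene was called. Thrb, the beta receptor for thyroid hormone, had 30.6, 13.6 and 2.99 normalised counts at E18.5 and 1089, 985 and 1122 in the adult (log2 fold change 6.55, limma adjusted p = 7.84e-05), beside a Thra difference of -0.57 (limma adjusted p = 0.0842). Itga7, the laminin-binding integrin chain of mature muscle, had 182, 307 and 462 at E18.5 and 8677, 8466 and 11326 in the adult (log2 fold change 4.99, limma adjusted p = 3.88e-11). Cytochrome oxidase subunits (Cox6a1 to Cox6a2, Cox8a to Cox8b), glucose transporters (Slc2a1 to Slc2a4), enolases (Eno1 to Eno3), mitochondrial adenine nucleotide carriers (Slc25a5 to Slc25a4) and the Polycomb methyltransferases (Ezh2 to Ezh1) were also among the 11, with Slc25a4 at 0.58 and at -0.29 after quantile normalisation.

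**Figure D2:**
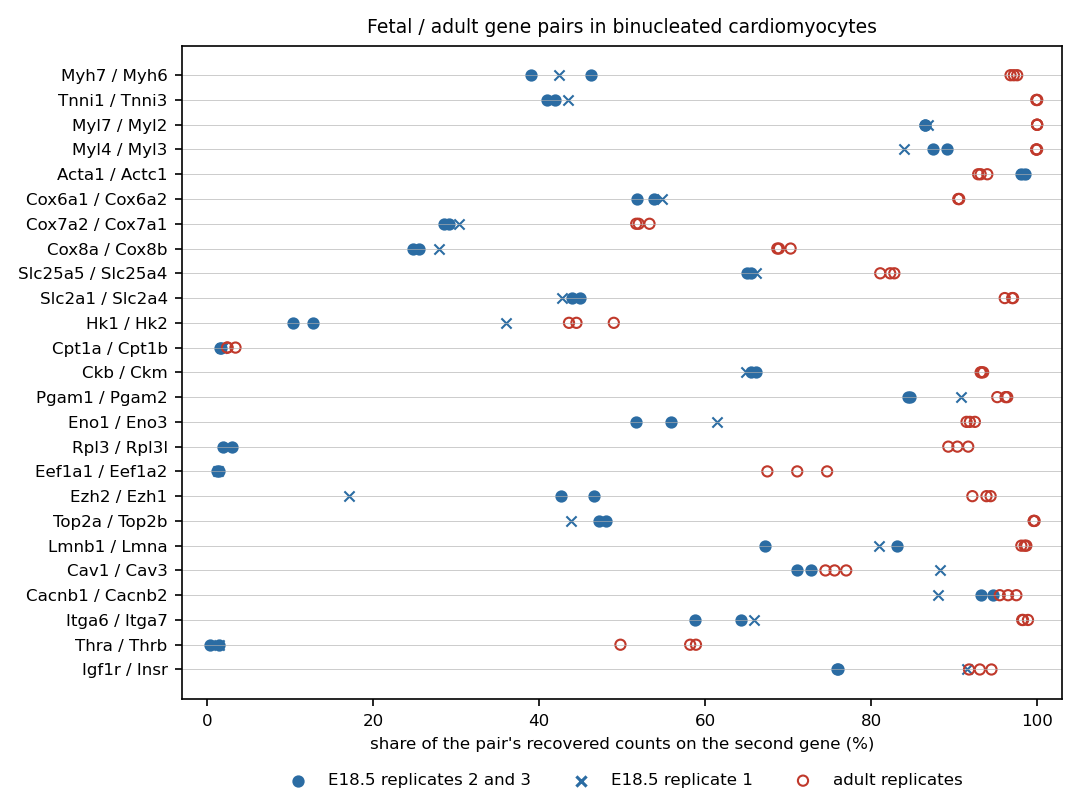
Share of the recovered counts of each fetal and adult gene pair that fell on the second gene (%), 1 point per binucleated library: filled circles and crosses are E18.5 and open circles adult. The adult points of Myh6 (96.8% to 97.6%) lie apart from those of E18.5 (39% to 46.3%), and the adult points of Acta1 / Actc1 (92.9% to 94%) lie to the left of those of E18.5 (98.1% to 98.5%).

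The higher sarcomere genes with the smallest adjusted p-values were regulatory and scaffold proteins. Ankrd23, a titin-binding ankyrin repeat protein, had 725, 766 and 845 normalised counts at E18.5 and 15983, 15764 and 16430 in the adult (log2 fold change 4.37 ± 0.13 SE, limma adjusted p = 5.62e-13). Trim54, a muscle RING finger protein, went from 121, 147 and 133 to 6589, 6575 and 7032, and Xirp2, an actin-binding repeat protein, from 100, 35.5 and 117 to 7288, 6827 and 5304. The lower members were Synpo2l (log2 fold change -1.49), Trim55 (-1.46) and Smpx (-0.63, not called without replicate 1).

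Of 34 measured ion channel and pump genes 23 were higher and 3 lower (median log2 fold change 1.89, and 1.46 without replicate 1), and of 33 calcium handling genes 16 were higher and 11 lower (median 0.31, and -0.10 with 12 and 13 after total-count scaling). Kcnip2, a subunit of the transient outward potassium current, rose by 1.85, while Kcne1, a subunit of the slow potassium current, fell by 3.55 after standing at a mean of 12949 at P7 (7012, 4675 and 5546 at E18.5, 501, 610 and 369 in the adult). Among calcium genes Atp2a2, the pump of the sarcoplasmic reticulum, had 36694, 62792 and 91879 at E18.5 and 278297, 268875 and 192404 in the adult (log2 fold change 2.03, limma adjusted p = 1.87e-06). Hrc, a calcium-binding protein of the reticulum, rose by 3.11 and the release channel gene Ryr2 by 1.36. Casq1, the skeletal calsequestrin, fell by 3.88 and Fkbp1b, a partner of the release channel, by 4.27. The connexin genes Gja5 (log2 fold change -4.04) and Gjc1 (-1.55) were lower.

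Fatty acid genes rose with few exceptions. Of 53 measured genes of fatty acid uptake and oxidation 41 were higher and 8 lower (median log2 fold change 1.71 with and without replicate 1). Plin5, which couples lipid droplets to mitochondria, had 216, 150 and 290 normalised counts at E18.5 and 10956, 11800 and 11390 in the adult (log2 fold change 5.75 ± 0.19 SE, limma adjusted p = 1e-12). Slc27a1, a fatty acid transporter, went from 771, 770 and 813 to 6986, 7925 and 8245, and Decr1, which processes unsaturated fatty acids in mitochondria, from 2832, 2554 and 2471 to 16291, 16194 and 14900. Pdk4, the kinase that closes pyruvate dehydrogenase when fat is burned, had 901, 2007 and 2387 at E18.5 and 39804, 74138 and 51340 in the adult (log2 fold change 5.03, limma adjusted p = 1.52e-08), and its relative Pdk3 moved the other way, from 2888, 2776 and 2623 to 42, 52.5 and 64. The 8 lower members were led by genes of fat synthesis and activation for it: Scd2, a desaturase (11599, 28494 and 20602 against 232, 118 and 359), Acsl3 (log2 fold change -3.35) and Acsl5 (-4.64), both acyl-CoA synthetases.

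Of 35 genes of the citric acid cycle and pyruvate entry 32 were higher and 1 lower (median log2 fold change 0.98), against 14 and 7 after quantile normalisation (0.26). Of 24 genes of ketone and branched-chain amino acid breakdown 22 were higher and 0 lower (median 1.13). Bdh1, which interconverts ketone bodies, had 404, 328 and 447 at E18.5 and 5470, 6159 and 5478 in the adult (log2 fold change 3.87, limma adjusted p = 1.01e-08) after a mean of 22.7 at P7. Bckdha, a subunit of the branched-chain keto acid dehydrogenase, rose by 2.78. Of 36 genes of glycolysis and glycogen 16 were higher and 12 lower (median 0.30), which turned to 9 and 15 after quantile normalisation (-0.33) and to 12 and 13 after total-count scaling (-0.11). Slc16a3, the lactate exporter, went from 1611, 2706 and 2524 to 13.6, 6.4 and 4.41 (log2 fold change -8.13, limma adjusted p = 1.21e-11), and Slc2a4, the insulin-responsive glucose transporter, from 2005, 2578 and 2732 to 18201, 18481 and 20261. Ckmt2, the mitochondrial creatine kinase, rose by 3.49, and Ckb, the brain form, fell by 2.70.

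The count of respiratory chain genes turned on 1 library and on the scaling. Of 74 measured nuclear genes of the respiratory chain and ATP synthase 19 were higher and 2 lower with all libraries (median log2 fold change 0.39), and 72 higher and 2 lower without E18.5 replicate 1 (median 0.80). After quantile normalisation 2 were higher and 13 lower (median -0.14), and after total-count scaling 7 and 3 (median -0.02), so the list has no fixed direction. Of 76 cytosolic ribosomal protein genes 0 were higher and 62 lower (median -1.02), and 1 higher and 56 lower without it (median -0.52). Cox7a1, the heart and muscle form of an oxidase subunit, had the largest rise of the respiratory list and was called with and without replicate 1. It had 9840, 3194 and 3516 at E18.5 against 11160, 12604 and 11585 in the adult, a log2 fold change of 1.29 ± 0.28 SE with all libraries (limma adjusted p = 0.00098) and 1.81 without replicate 1. Ndufs1, a subunit of complex I, had its lowest E18.5 value in replicate 1, at 13085, 19768 and 19411 against 37324, 36993 and 36859, with 1.11 and 0.92. Ribosomal protein genes took 2.71% of the counts of replicate 1, 1.11% of replicates 2 and 3 each, and 0.565% to 0.625% in the adult. The median longest transcript was 992 nt over the respiratory genes and 1100 nt over the ribosomal ones, against 3472 nt over all genes. Whether length, RNA quality or the cells themselves set this library apart was not tested.

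Genes of the mitochondrial genome took 0.831% and 0.958% of counts in E18.5 replicates 2 and 3, 2.1% in replicate 1, and 2.18% to 2.57% in the adult. All 11 that were listed were higher in the adult. Their median change was 1.54 log2 units, and 2.08 without replicate 1. Replicate 1 lay nearer to the adult libraries than to its own group in this share.

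**Figure D3:**
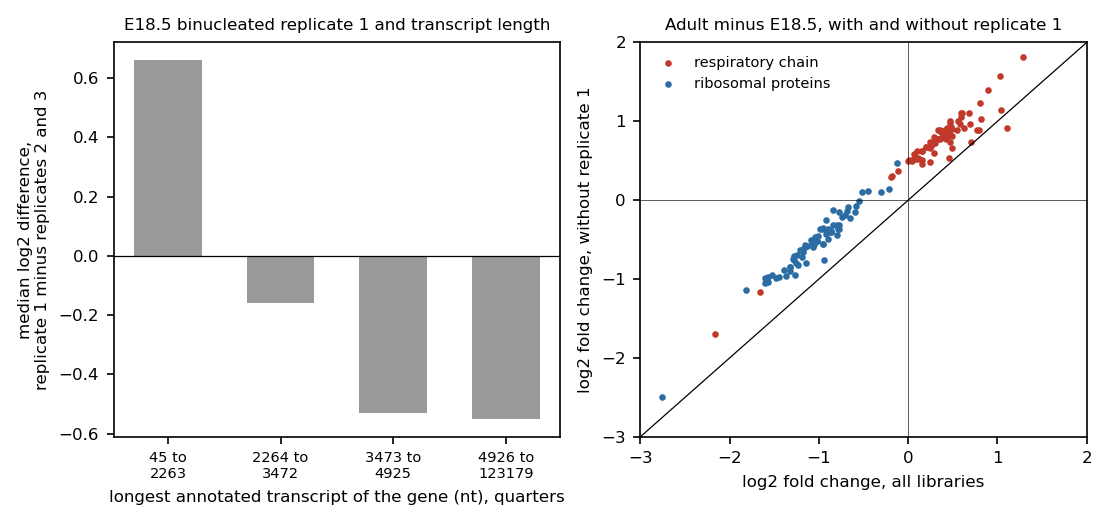
Left, the median log2 difference of E18.5 binucleated replicate 1 from replicates 2 and 3, by length bin of the longest annotated transcript (nt). Right, log2 fold changes with all libraries against those without it, 1 dot per gene. The medians are 0.39 and 0.80 for respiratory chain genes and -1.02 and -0.52 for ribosomal protein genes.

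Fetal growth genes mostly fell. Among 31 measured imprinted and fetal growth genes 24 were lower and 0 higher (median log2 fold change -2.86). Without replicate 1, 27 were lower and 0 higher (median -3.22). After quantile normalisation 24 were lower and 1 higher, and the same counts were found without E18.5 binucleated replicate 2. Beside Igf2, Mest, an imprinted gene of the hydrolase family, went from 7577, 10010 and 8884 to 23.8, 17.9 and 26.5 (log2 fold change -8.57 ± 0.26 SE, limma adjusted p = 5.62e-13), and Plagl1, an imprinted zinc finger factor, from 4561, 4881 and 4733 to 51.1, 96.1 and 45.2. The ages stayed far apart in all libraries of both.

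Among 30 nuclear receptor and coactivator genes 20 were higher and 2 lower (median 1.07). Rxrg, a retinoid X receptor, had 39.1, 4.53 and 8.98 at E18.5 and 4875, 4262 and 4274 in the adult (log2 fold change 8.51, limma adjusted p = 3.69e-09). Lpin1, a phosphatidate phosphatase that also acts as a coactivator, rose by 3.97, and Dio2, which activates thyroid hormone, fell by 3.68. Of 37 cardiac transcription factors 14 were higher and 9 lower, 11 and 10 without replicate 1, and 6 and 12 after total-count scaling. Hand1, a factor of the forming left ventricle, had 179, 135 and 98.8 at E18.5 and 0 in the adult (at least 112-fold lower), and Tead2, a TEA-domain partner of Yap, went from 685, 536 and 436 to 1.14, 0 and 6.62. Klf15, a regulator of cardiac metabolism, rose by 1.79. Of 21 circadian genes 12 were higher and 5 lower. Nr1d1, a repressor of the clock, rose by 2.66 and Per1 fell by 1.44. The labels do not state the hour of collection. Nr1d1 overlaps Thra on the opposite strand, and whether counting used strand is not given.

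Chromatin genes were mostly lower: of 37 members 27 were lower and 5 higher (median -0.68). Ezh2, the Polycomb methyltransferase of dividing cells, went from 999, 696 and 816 to 118, 113 and 111 while Ezh1 went from 207, 608 and 606 to 1404, 1744 and 1876. The nuclear envelope list of 27 had 12 lower and 4 higher (15 and 1 without replicate 1, 16 and 0 after total-count scaling). Lmnb1, lamin B1, went from 558, 641 and 1610 to 55.6, 73 and 55.2 (log2 fold change -3.76, limma adjusted p = 1.97e-07), and Tmpo, a lamina-associated protein, fell by 2.79. Lmna, the A-type lamin, had 2377, 3152 and 3294 against 3698, 3779 and 4275, a call (log2 fold change 0.43, limma adjusted p = 0.0177) that was lost without replicate 1 (0.28, limma adjusted p = 0.062).

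Protein quality control genes rose in 26 of 38 cases and fell in 6 (median 0.91), against 18 and 10 after quantile normalisation (0.22). Pink1, the kinase that marks damaged mitochondria, went from 2465, 3421 and 3168 to 25408, 24620 and 29082 (log2 fold change 3.14, limma adjusted p = 9.41e-12), and lysosomal protease genes Ctsd and Ctsb rose by 2.13 and 1.61. Immediate early genes, which respond quickly to stimulation and stress, were also higher: 17 of 27 higher and 4 lower (median 1.23), and 12 and 5 without replicate 1. Junb went from 420, 940 and 1561 to 6933, 9793 and 9492, and Fosb moved the other way, from 564, 1242 and 1781 to 45.4, 174 and 136. How the hearts were dissociated at each age was not compared here.

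**Figure D4:**
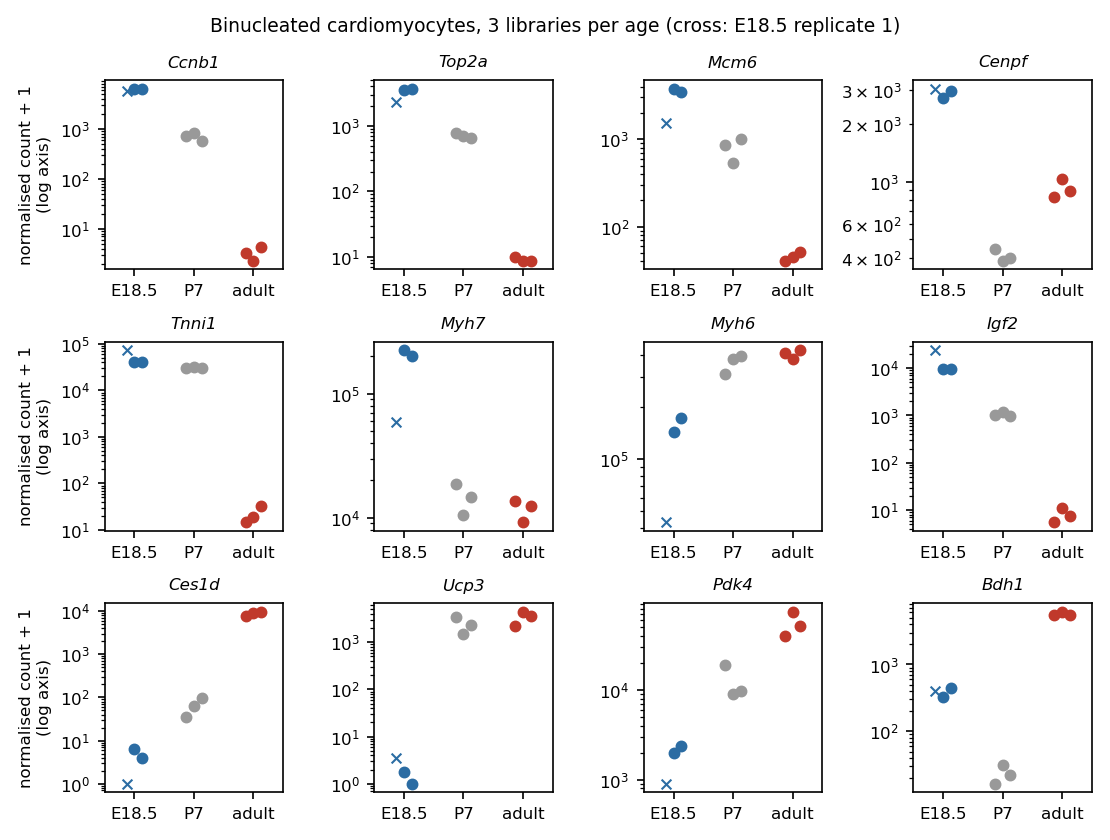
Normalised counts plus 1 (log axis) of 12 genes in the binucleated libraries of E18.5, P7 and the adult, 1 point per library, with E18.5 replicate 1 as a cross. Ccnb1 lies between at P7, Cenpf is lowest at P7, Tnni1 is still high at P7, and Bdh1 lies below both other ages at P7.

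In 2730 of the 3409 higher genes and 2873 of the 3539 lower ones the P7 mean lay between those of E18.5 and the adult. Such genes were picked for a difference between E18.5 and the adult, which by itself favours a P7 mean in between. The share over all genes was not computed, so these counts do not show a gradual course. The mitotic list had a median of -2.59 from E18.5 to P7 and -4.84 from P7 to the adult, and the replication list -1.51 and -1.52. From E18.5 to P7 36% of genes were called (18.2% higher and 17.7% lower), and from P7 to the adult 37% (17.3% and 19.7%). These steps share the P7 libraries and each shares libraries with the net change, so they are given only side by side. The mean of Myh7 at P7 was 14611, close to its adult values, whereas that of Tnni1 was still 30946. Rpl3l had a mean of 555 at P7, Pdk4 of 12557 and Ces1d of 63.7, under each of their adult values.

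Transcripts that mark other heart cells were found in the libraries of both ages, and fibroblast, erythroid and epicardial markers were lower in the adult. Which cells these transcripts came from was not tested. Of 11 measured fibroblast markers 10 were lower and 0 higher (median -3.07), and their summed level was 777, 1782 and 1778 CPM (counts scaled to the library total) at E18.5 and 58.4, 108 and 99.9 in the adult. Replicate 1 had less of them than the other E18.5 libraries. All 5 erythroid genes were lower (globin copies share reads and are uncertain), all 6 epicardial markers were lower, and 1 of 7 leukocyte markers was lower with 0 higher. Of 17 endothelial markers 1 was higher and 3 lower, with sums of 104, 196 and 187 at E18.5 and 108, 111 and 132 in the adult. Of 10 pericyte and smooth muscle markers 3 were higher and 4 lower. The list of matrix genes, which fibroblasts lead, had 34 of 40 lower (median -3.01), among them Col6a2 (1309, 2038 and 2341 against 32.9, 48.7 and 40.8) and Sparc (log2 fold change -2.92). No fibroblast, endothelial, leukocyte or erythroid marker was at 0 in all 3 libraries of either age. The part of these cells in the matrix and cell cycle results was not tested. The labelled cell type had its markers: the 12 ventricular markers summed to 38957, 49828 and 50107 CPM at E18.5 and 48332 to 49671 in the adult, 7 of them higher and 2 lower. That count was 10 and 2 without replicate 1 and turned to 3 and 5 after quantile normalisation. The atrial list had 5 of 8 lower and 2 higher.

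Whether the change belonged to binucleated cells was tested against mononucleated cells of the same ages, which share no library with them and in which 53.8% of genes were called (26.2% higher and 27.7% lower). The difference of both changes was called for 19 of all listed genes (0.158%) by limma with Benjamini-Hochberg adjustment, 807 at an unadjusted p under 0.05. In all 19 the change was more negative in binucleated cells; without E18.5 binucleated replicate 1 there were 34 (0.282%), of which 3 (0.0249%) were more positive and 31 (0.257%) more negative. The direction rested on single libraries: without E18.5 binucleated replicate 3, 14 of 34 were more positive, and array weights gave 11 of 99. Leaving out 1 other library gave 8 (adult mononucleated replicate 2), 10 (adult binucleated replicate 1), 33 and 36 (E18.5 mononucleated replicates 1 and 3) or the 34 named, and between 15 and 28 for the rest. Most genes above thus have no called difference between the classes, which does not show that they changed alike.

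The firmest difference was Cenpf, which fell in binucleated cells and rose in mononucleated ones. Mononucleated libraries had 983, 1035 and 1287 normalised counts at E18.5 and 1785, 1496 and 1760 in the adult, against the binucleated values given above, so that binucleated cells were the higher class before birth and the lower one in the adult (difference -2.28 ± 0.21 SE, limma adjusted p = 0.000114). Top2a fell in both but further in binucleated cells (difference -2.26, limma adjusted p = 0.00785), as did the spindle gene Aspm (-4.01, limma adjusted p = 0.0129). Aspm had 0, 1.28 and 0 normalised counts in adult binucleated libraries and 7.38, 3.98 and 2.35 in adult mononucleated ones. The size of its difference thus rests on the floor. Ndn, which encodes necdin and is imprinted, fell by 4.36 in binucleated and by 1.86 in mononucleated cells (difference -2.51, limma adjusted p = 0.0038). Sod3, the extracellular superoxide dismutase, rose in both and less in binucleated cells (difference -5.11, limma adjusted p = 0.00736). It was at 0 in every E18.5 mononucleated library, so the size of its difference rests on the floor.

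Of the 19 genes 5 are on marker lists of other cells (Laptm5 and C1qc of leukocytes, Dcn and Postn of fibroblasts, Pdgfrb of pericytes). At E18.5 fibroblast markers summed to 809 to 865 CPM in mononucleated libraries of that age, where the binucleated ones had 777, 1782 and 1778, and leukocyte markers to 4.01 to 4.27 against 15.4 to 46.3. Endothelial markers were also higher in each binucleated library of that age, at 104, 196 and 187 CPM against 35.3, 49.6 and 28. So were erythroid markers (187, 120 and 118 against 65, 77.6 and 42.8). Epicardial markers were higher too (29.9, 33.4 and 36.6 against 11.1, 14 and 14.9). Neural and Schwann markers overlapped (2.22, 6.01 and 8.8 against 8.16, 4.27 and 6.01). The sum of the pericyte and smooth muscle list was lower in binucleated libraries (3050 to 3187 against 3271 to 3445). That list includes Des and Acta2, which cardiomyocytes can also express, so its sum does not measure pericytes. The list member Pdgfrb went the other way, at 20.8, 164 and 111 normalised counts against 0 in each mononucleated library of E18.5. With the replicate number as a block, C1qc, Postn, Pdgfrb and Gal, a neuropeptide gene, were no longer called, 15 of the 19 calls were kept and 3 were gained. This block gave same-numbered libraries of all ages a common offset, so the pairing of the adult classes was not fitted by itself. The part of other cell types in these calls was not tested. For mitotic genes the list median was -7.63 in binucleated and -6.48 in mononucleated cells, and 2 of the 65 members (Cenpf and Top2a) were called for the difference.

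**Figure D5:**
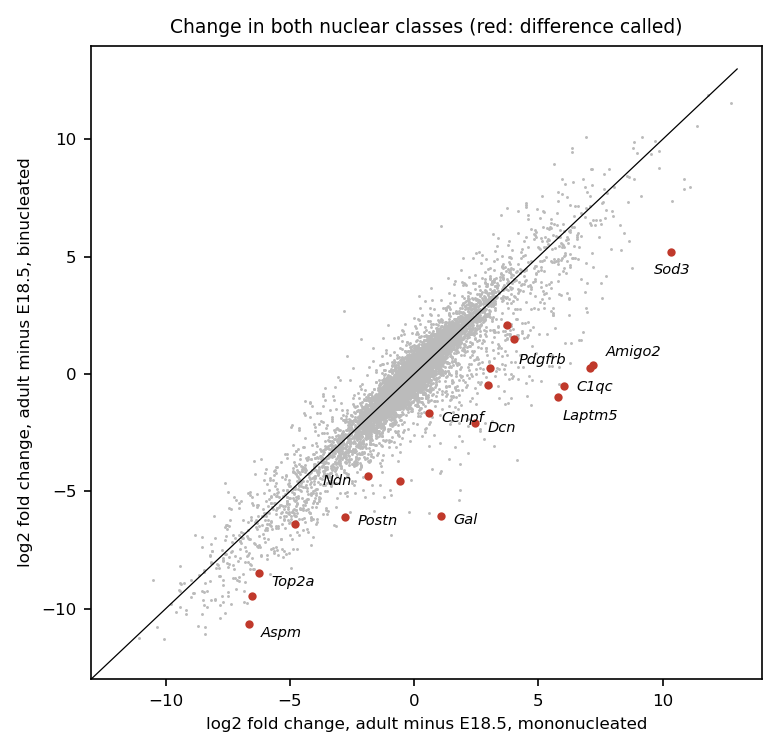
Log2 fold change (adult minus E18.5) of each gene in mononucleated (x) and binucleated (y) cardiomyocytes; red dots are the 19 genes whose change differed by limma and the line marks equal change. All red dots lie under the line.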

How the data were processed

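RNA of sorted cardiomyocytes was measured in 18 libraries of 6 groups. Per the labels' protocols, sorting was into Trizol-LS, and an RNeasy micro clean-up preceded stranded TruSeq mRNA library preparation with SMARTer amplification. STAR, limma and build mm9 are named, per the submitters' processing notes. Not given are versions, the read counter and how nuclear number was told apart. The authors deposited log2 values, which had the form of a whole count plus 0.5 times 1 factor per library, so that the counts were recovered within 1e-08 of whole numbers (100% within 0.001).

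Group means were fitted to the deposited log2 values of all 18 libraries with limma 3.58.1 in R 4.3.3 (empirical Bayes with intensity trend, 12 residual degrees of freedom), and p-values were adjusted by Benjamini-Hochberg over all listed genes. Tests were two-sided and the threshold was 0.05. The fit was also run on simulated libraries with few changed genes and no outlying library, so that run does not show how it behaves in these data. Symbols matched 11927 identifiers and 121 had none. Named genes were the 10 per direction with the largest called change among well measured genes whose groups did not overlap, up to 3 per list and direction by adjusted p, both genes of each pair, and the genes called for the difference between classes; others were added after their values were seen and serve to complete a list or pair. Members and lists were chosen with earlier results of these data known. Since amplified reads without identifiers are not independent molecules, intervals and floors here describe counting error alone. Not every gene that the rule names is reported here. Same-numbered adult libraries of both classes deviated together (correlations of 0.261, 0.264 and 0.327), so numbers pair the adult classes in the data; for E18.5 they did so less (0.0879, 0.0545 and 0.158). Alternatives were other scalings, weights, filters and library sets. Promoter sequences are from RefSeq on GRCm38.p6, and no coordinates of mm9 were used. Summaries used Python 3.11.15, pandas 2.3.3 and scipy 1.17.1.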

Additional observations from a re-analysis of the deposited data

Results flagged for a closer look

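The change from E18.5 to the adult differed between binucleated and mononucleated cells in 19 genes by limma's interaction term. Cenpf, of the kinetochore, differed by -2.28 on the log2 scale, Top2a by -2.26 and Ndn by -2.51. Sod3 differed by -5.11. Amigo2, an adhesion protein gene, differed by -6.80: it was not called in binucleated cells (log2 fold change 0.40) and rose by 7.19 in mononucleated ones. Laptm5, a lysosomal protein gene on the leukocyte list, differed by -6.79, and rose by 5.79 in mononucleated cells. In E18.5 mononucleated libraries Amigo2 stood at 0.821, 0 and 0 normalised counts, and Laptm5 and Sod3 at 0 in each. The sizes of these differences thus rest on the floor. Of the 19 genes, 11 were higher in adult mononucleated cells, and in binucleated cells 10 were lower, 3 higher and 6 not called.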

How the results depend on the processing

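The count of genes called in binucleated cells lay between 6240 and 7593 when 1 library was left out, 5060 with those 6 libraries alone and 8311 with limma array weights. A treat test against a 2-fold change called 2449 genes, and 2506 without E18.5 replicate 1. For the difference between classes, array weights called 99 genes, no intensity trend 38, the treat test 4 and the treat test without E18.5 replicate 1 11; leaving out 1 library gave 8 to 36. The cause of these moves was not tested. The replicate numbers did not pair E18.5 and adult libraries (correlations of 0.034, -0.128 and -0.009). A replicate block gave 6863 called genes, and 18 for the difference between classes, whose adult libraries were paired by number. That block was shared by all ages, so the adult pairing was not fitted by itself. Of 130 genes named, 120 were called, and 111 of these kept direction and call in every alternative but the treat tests. The log2 filter removed 0 genes.

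Some log2 fold changes in binucleated cells changed sign. With quantile normalisation they were -0.76 for Myl2, -0.68 for Myl3, -0.43 for Actc1, -0.0649 for Tnni3, -0.29 for Slc25a4, -0.18 for Pttg1, 0.0023 for Laptm5 and 0.45 for C1qc. With total-count scaling they were -0.35 for Myl2, -0.13 for Myl3, -0.20 for Actc1, -0.37 for Pttg1, -0.15 for Pdgfrb and -0.014 for Amigo2. Array weights gave -0.34 for Pdgfrb. Leaving out 1 library gave -0.12 to 0.43 for Myl2, -0.30 to 0.36 for Pttg1 and -0.63 to 0.84 for Pdgfrb.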

Other observations

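Of 26 measured adrenergic, muscarinic and peptide receptor genes and their effectors 11 were higher and 4 lower (median log2 fold change 0.44), against 6 and 5 after total-count scaling (0.03). Chrm2, the muscarinic receptor of the heart, had 1113, 2123 and 1796 normalised counts at E18.5 and 6541, 6675 and 7148 in the adult (log2 fold change 2.07, limma adjusted p = 1.15e-07). Adra1a, an alpha-adrenergic receptor, had 18.3, 0 and 4.49 and then 543, 538 and 566 (log2 fold change 7.39, limma adjusted p = 4.02e-05). The ages did not overlap for either gene, as for 58.64% of all listed genes.

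Splicing regulators went both ways, with 14 of 29 lower and 5 higher (median -0.58). Rbfox1, a splicing factor of muscle and nerve, went from 86.8, 178 and 132 to 949, 982 and 904, and Mbnl3, a muscleblind protein of immature muscle, from 66.1, 92.1 and 63.6 to 0, 0 and 3.31. Of 21 glucocorticoid-responsive genes 11 were higher and 1 lower (median 1.68; 13 and 3 without E18.5 replicate 1). Angptl4, a secreted inhibitor of lipoprotein lipase, went from 62.4, 43 and 32.2 to 783, 1793 and 1383 (log2 fold change 4.80, limma adjusted p = 2.93e-07). Of 26 class I antigen presentation and interferon genes 7 were higher and 3 lower, and 11 and 3 without E18.5 replicate 1; the share higher with all libraries was near that of all genes. Tap2, a peptide transporter, went from 29.4, 58.9 and 44.2 to 464, 433 and 361. These genes were chosen after their values were seen.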
